A study of Homo sapiens with 6 samples.

Results

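Transcript levels of NNMT and 9 other genes of NAD metabolism (NAMPT, NAPRT, NMNAT1, NMNAT2, NMNAT3, NMRK1, NADK, NADSYN1 and SIRT1) were examined in LN229, an established human glioblastoma cell line. These 10 genes, of 28265 gene symbols in the deposited tables, were taken by name. NNMT was selected on its log2 fold change in this same contrast, where it is among the genes with the largest falls, and the other 9 joined it by pathway with their values already known. The differences of the 10 genes are therefore a description: the intervals of the fit across all genes, and on which side of its threshold a gene lay, are given beside them, but they are no independent test of genes chosen in this way. Total RNA was sequenced from 3 libraries labelled TRIM25 knockdown and 3 labelled WT. The series design describes the knockdown cells as shTRIM25 derivatives of LN229, that is, cells carrying a short hairpin RNA against TRIM25, an E3 ubiquitin ligase. Both groups were grown in serum-containing DMEM. The labels do not say how many hairpins were used, whether the knockdown cells were a pool or a clone, or whether the WT libraries, titled NC, carried a non-targeting hairpin. Separate cultures are not stated either, so errors and p-values measure only how far these libraries vary.

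NAD is the electron carrier of oxidation and reduction reactions and is also consumed by enzymes that split it and release nicotinamide. Cells rebuild NAD from nicotinamide through NAMPT, the rate-limiting enzyme of salvage, from nicotinic acid through NAPRT, from nicotinamide riboside through NMRK1, or from tryptophan, and these routes meet at the NMNAT enzymes. NNMT takes nicotinamide out of this cycle: it transfers a methyl group from S-adenosylmethionine to nicotinamide, so it draws on the NAD precursor pool and on the methyl donor pool together. NNMT is known as a gene of high expression in many solid tumours and in mesenchymal cells.

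Total counts ranged from 11349865 to 16404725 in the libraries labelled knockdown and from 13763400 to 15868470 in the WT libraries. TRIM25 itself stood at 38.9, 40.1 and 45.3 TPM (transcripts per 1000000, a level scaled for gene length and library size, as deposited by the authors) in the libraries labelled knockdown, against 17.4, 17.1 and 16.9 TPM in WT. The targeted mRNA was thus higher under the knockdown label, by 1.22 ± 0.07 on the log2 scale (SE, edgeR adjusted p = 3.23e-09). Every direction below is that of the label, not of a loss of TRIM25 mRNA. In GENCODE v29 the TRIM25 exons, 9501 bp, share 538 bp with an antisense model and 80 bp with DGKE on the opposite strand. They share 132 bp with C17orf67 and 86 bp with MIR3614 on the same strand. DGKE, C17orf67 and MIR3614 had at most 73, 42 and 0 counts in any library. The part of reads in these stretches in the TRIM25 level was not tested. Of 10 glioma and astrocyte marker genes 8 passed the filter on low counts, and 1 was higher and 3 were lower in the libraries labelled knockdown. NES was higher (log2 fold change 0.27), and SOX2 (-0.66), OLIG2 (-0.67) and S100B (-0.33) were lower. GFAP did not pass that filter. Of 6 neuron markers 4 passed it, of which SYT1 was higher and SNAP25 and GAD1 were lower. Of 4 endothelial markers only VWF passed it, and it was not called. Over all tested genes 23.3% were called. Of 7 haematopoietic markers AIF1 and TYROBP had no count in any library and 1 passed the filter, CD68, a lysosomal protein of macrophages, which was higher at 106.2 ± 8.98 TPM in the libraries labelled knockdown, against 72.9 ± 2.31 TPM in WT (SD, n = 3 each; log2 fold change 0.49, edgeR adjusted p = 0.000299). The summed level of these 7 genes was 99.3 to 117.7 TPM in the libraries labelled knockdown and 71.8 to 76.0 TPM in WT, and their part in the results was not tested. Of 5 epithelial markers KRT5 and KRT19 had no count in any library and KRT18 alone passed the filter, at 142.3 ± 2.83 TPM in the libraries labelled knockdown and 132.7 ± 5.22 TPM in WT (SD, n = 3 each; log2 fold change 0.05, not called). Fold changes also followed gene length (Spearman's rho 0.30 across 14315 tested genes, which are not independent replicates). The same trend ran between libraries of a group: deviations from the group mean had a rho with length of -0.38, 0.07 and 0.38 in labelled knockdown replicates 1, 2 and 3, and of 0.41, -0.12 and -0.36 in WT replicates 1, 2 and 3.

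All 10 genes passed the filter on low counts. In GENCODE v29 the exons of NAMPT share 786 bp and those of NMNAT3 80 bp with an antisense model, and those of NAPRT share 855 and 292 bp with 2 models on the opposite strand. Those of NMNAT1 share 436 bp and those of NMNAT3 281 bp with a model on the same strand. Reads in the same-strand stretches cannot be assigned to 1 gene with certainty. For the opposite-strand stretches this depends on the strand setting of the counting, which is not given, although the kit was stranded. None of these overlapping models has a row in the deposited tables. The per-length levels of the 10 genes spanned a wide range, from NAMPT with a mean of 244.3 TPM in the libraries labelled knockdown and 207.5 TPM in WT, down to NMNAT2 with 2.61 TPM in the libraries labelled knockdown and 2.62 TPM in WT. In the libraries labelled knockdown the order was NAMPT, NAPRT, NADSYN1, NADK, NMRK1, SIRT1, NMNAT1, NMNAT3, NNMT and NMNAT2. In WT the order was NAMPT, NAPRT, NADSYN1, NADK, NMRK1, NNMT, SIRT1, NMNAT1, NMNAT3 and NMNAT2. The first 5 places were the same in both groups, while NNMT stood in place 9 in the libraries labelled knockdown and in place 6 in WT. Neighbours in this order were apart in every library of their group, with 3 exceptions. The ranges of NMRK1 and SIRT1 and those of NNMT and NMNAT2 overlapped in the libraries labelled knockdown, and the ranges of NNMT and SIRT1 overlapped in WT.

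**Figure D1:**
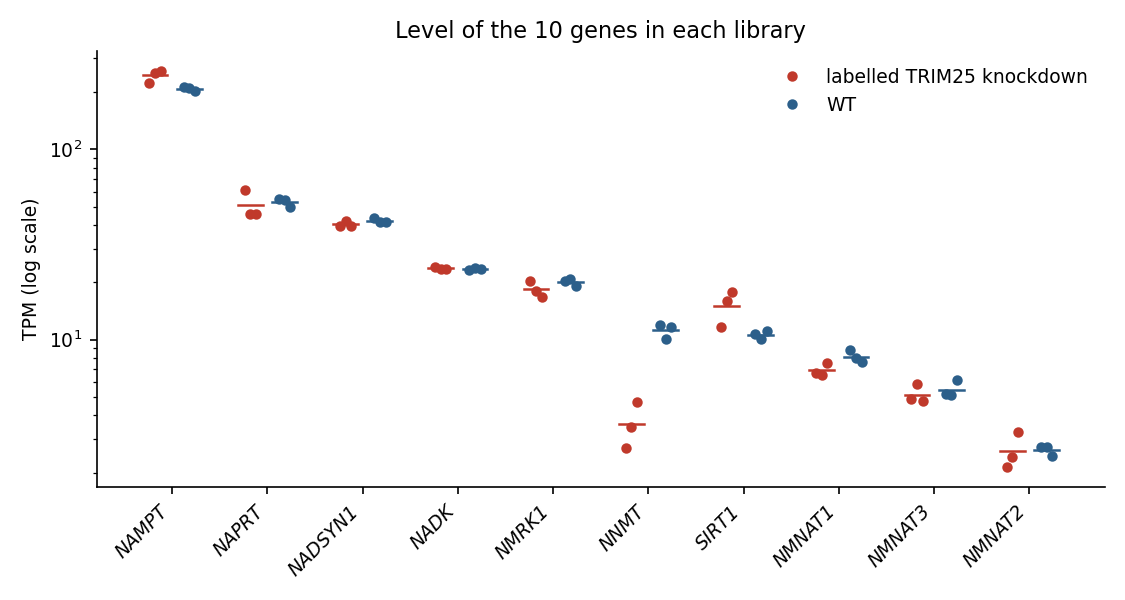
Level of each of the 10 genes in TPM on a log axis, with 1 point per library and a bar at the group mean (3 libraries labelled TRIM25 knockdown in red, left of 3 WT libraries in blue). NNMT lies between 2.71 and 4.71 TPM in the libraries labelled knockdown and between 10.0 and 12.0 TPM in WT, whereas NADK lies between 23.4 and 24.1 TPM in all 6 libraries.

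NNMT, the nicotinamide methyltransferase gene, had 2.71, 3.47 and 4.71 TPM in the libraries labelled knockdown, against 12.0, 10.0 and 11.6 TPM in WT. The raw counts behind these levels were 30, 35 and 67 in the libraries labelled knockdown and 172, 129 and 173 in WT. All 3 libraries labelled knockdown were far below all 3 WT libraries, and labelled knockdown replicate 3 was the highest of them. The log2 fold change was -1.65 ± 0.16 (SE of the fit across all genes), a level 3.13-fold lower than in WT, and only 71 of the 14315 tested genes, NNMT included, had a log2 fold change this low. The spread was wider in the libraries labelled knockdown, with a coefficient of variation of 25.2% in CPM (counts per 1000000, here scaled by TMM), against 8.51% in WT. With 1 library left out at a time the log2 fold change lay between -1.90, without labelled knockdown replicate 3, and -1.49, without labelled knockdown replicate 1. With offsets that remove the length trend it was -1.60.

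NNMT is also abundant in fibroblasts, so fibroblast and pericyte markers are given beside it. Of 6 such genes 5 were tested, of which COL1A1, DCN and PDGFRB were lower and RGS5 was higher in the libraries labelled knockdown, and none was at 0 in all libraries. Decorin, DCN, stood at 8.38 ± 0.565 CPM in the libraries labelled knockdown and 18.8 ± 1.27 CPM in WT (SD, n = 3 each), or -1.17 ± 0.10 on the log2 scale (SE, with an edgeR adjusted p of 6.39e-07). The summed level of the 6 markers ranged from 55.9 to 63.8 TPM in the libraries labelled knockdown and from 61.2 to 64.6 TPM in WT, so the sums overlapped. Most of each sum was LUM, the gene of the matrix proteoglycan lumican, which did not pass the test and lay between 43.4 and 50.4 TPM in the libraries labelled knockdown and between 44.0 and 48.3 TPM in WT. COL1A1 had a mean of 1.72 TPM in the libraries labelled knockdown and 2.49 TPM in WT. COL1A2 did not pass the filter, with 2, 5 and 3 counts in the libraries labelled knockdown and 11, 6 and 10 in WT. All libraries were of the LN229 cell line, so these markers are no measure of a fibroblast share. Whether cells within the line differed in NNMT was not tested. In bulk RNA, fewer cells of a kind and less RNA per cell cannot be told apart.

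The genes whose profile over the 6 libraries was most like that of NNMT were LINC00839, APBA2, PCDHA7, ABCA8 and ADD2. Likeness was the root mean square difference of log2 CPM after each gene was centred on its own mean, and was 0.14, 0.14, 0.15, 0.16 and 0.18 for these 5 genes in turn. All had low counts, with mean levels from 0.246 CPM for LINC00839 to 2.18 CPM for ABCA8 in the libraries labelled knockdown, and from 0.945 to 8.55 CPM for the same genes in WT. PCDHA7 shares 2866 bp of exon with other protocadherin alpha genes, so its reads cannot be assigned to it alone. The distances of the other 9 genes of NAD metabolism were larger, from 0.71 for NMNAT1 to 1.05 for SIRT1. This measure carries the fall of NNMT on which that gene was selected. A gene without a fall of like size is far from NNMT by construction, so the distances are no separate result.

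**Figure D2:**
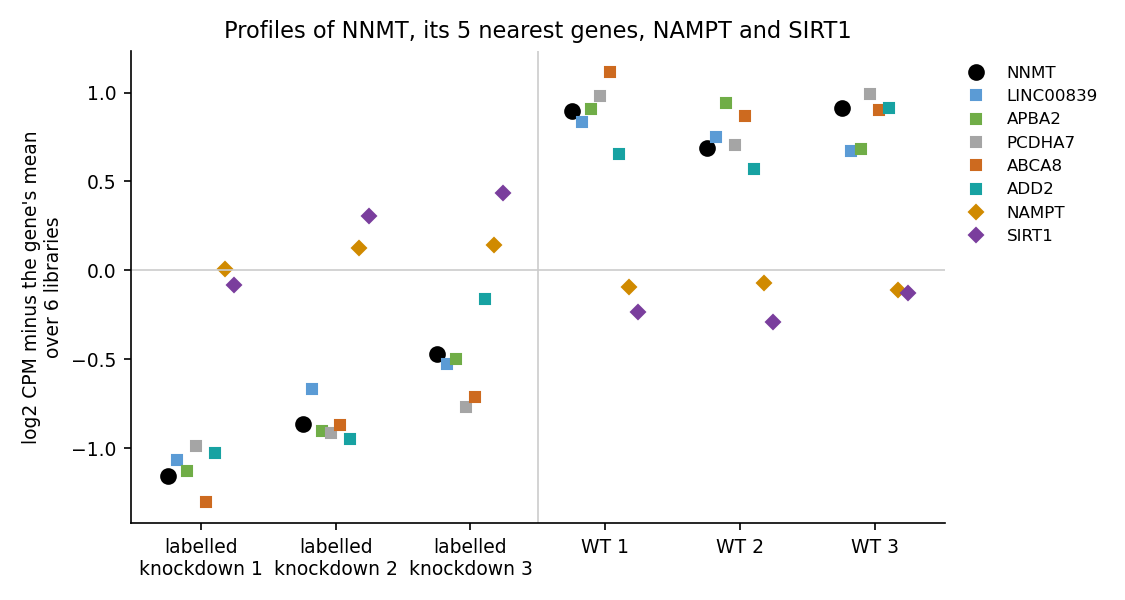
Level of NNMT (black circles), the 5 genes with the most similar profile (squares), NAMPT and SIRT1 (diamonds) in each of the 6 libraries, as log2 CPM minus the gene's own mean over the libraries. NNMT and its neighbours lie below 0 in all 3 libraries labelled TRIM25 knockdown and above 0 in all 3 WT libraries, while NAMPT and SIRT1 lie below 0 in every WT library. In labelled knockdown replicate 1 SIRT1 is also below 0 (-0.08) and NAMPT is at 0.01.

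NAMPT, which makes nicotinamide mononucleotide from nicotinamide and so competes with NNMT for the same substrate, had 223, 251 and 259 TPM in the libraries labelled knockdown, against 212, 209 and 202 TPM in WT. The groups did not overlap, but the lowest library labelled knockdown, replicate 1, was close to the highest WT library. The log2 fold change was 0.18 ± 0.05 (SE; 95% interval 0.07 to 0.30). The ratio of NAMPT to NNMT, both in TPM, was 82.4, 72.2 and 55.0 in the libraries labelled knockdown, against 17.7, 20.8 and 17.4 in WT. This ratio carries the fall of NNMT on which that gene was selected, and is no separate result.

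SIRT1, a nuclear deacylase that consumes NAD and releases nicotinamide, had 11.7, 15.9 and 17.7 TPM in the libraries labelled knockdown, against 10.7, 10.0 and 11.1 TPM in WT. The groups did not overlap, though labelled knockdown replicate 1 was just above the WT libraries and the other 2 were well above them. The log2 fold change was 0.46 ± 0.11 (SE; 95% interval 0.22 to 0.70). It was 0.34 without labelled knockdown replicate 3, 0.60 without replicate 1 and 0.43 with the length offsets.

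NAMPT and SIRT1 were the genes of the 10 that stood higher, and the series title places MYC downstream of TRIM25, so the 250 bases upstream of their RefSeq starts (GRCh38.p14, where the deposited counts used hg19) were read for CACGTG, the E-box that MYC and other bHLH factors bind, and for the GC box GGGCGG on either strand, the motif of SP family factors. Capitals mark these motifs in the SIRT1 window on the plus strand, chr10:67884406-67884655, and in the NAMPT window on the minus strand, chr7:106284984-106285233, and the motifs do not overlap each other in either window.
SIRT1: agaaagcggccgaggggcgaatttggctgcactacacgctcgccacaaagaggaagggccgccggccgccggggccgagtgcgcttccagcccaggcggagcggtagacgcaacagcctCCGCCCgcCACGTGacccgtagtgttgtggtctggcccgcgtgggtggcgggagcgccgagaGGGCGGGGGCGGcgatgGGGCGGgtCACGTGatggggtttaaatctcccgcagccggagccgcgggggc
NAMPT: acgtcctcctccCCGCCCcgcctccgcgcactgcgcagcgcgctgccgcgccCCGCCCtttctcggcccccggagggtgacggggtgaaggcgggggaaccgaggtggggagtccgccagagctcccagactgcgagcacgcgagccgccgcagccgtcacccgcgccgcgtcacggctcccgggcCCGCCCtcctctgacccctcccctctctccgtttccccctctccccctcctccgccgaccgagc

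The SIRT1 window held 2 CACGTG and 4 GC box matches, and the NAMPT window held 0 and 3. Both windows were rich in CpG, with 32 in SIRT1 and 34 in NAMPT, where the median of 35114 RefSeq windows of this length was 11. This was not particular to the genes that stood higher. NADSYN1 had 29 CpG and 5 GC box matches, and 1 NADK start had 29 and 4, though neither gene was called. Other starts were poorer, down to 4 CpG and 0 GC box matches at 1 NMNAT2 start. Of all these windows 6.35% held CACGTG and 42.6% held the GC box. For the 10 genes, 7 had entries, with 11 starts between them. NNMT, NAPRT and NMRK1 had none. CACGTG was present at 2 of these starts, that of SIRT1 and 1 of 3 for NADK, and the GC box at 8. A match is a description of the letters and says nothing about binding in these cells.

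Upstream of the shared NMNAT step, the gene for nicotinic acid salvage, NAPRT, had 61.0, 45.8 and 45.6 TPM in the libraries labelled knockdown, against 54.6, 54.1 and 50.1 TPM in WT. Labelled knockdown replicate 1 was above and the other 2 were below every WT library, so the groups overlapped. Its log2 fold change was -0.11 (95% interval -0.33 to 0.12), and it was -0.28 without labelled knockdown replicate 1. NMRK1, the nicotinamide riboside kinase gene, had 20.4, 18.1 and 16.8 TPM in the libraries labelled knockdown, against 20.3, 20.7 and 19.1 TPM in WT. Its groups overlapped too, with a log2 fold change of -0.17 (95% interval -0.40 to 0.05).

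The NMNAT genes encode the enzymes that join the mononucleotide to AMP, in the nucleus for NMNAT1, at the Golgi and in axons for NMNAT2, and in mitochondria for NMNAT3. NMNAT1 had 6.66, 6.50 and 7.55 TPM in the libraries labelled knockdown, against 8.78, 7.98 and 7.68 TPM in WT. The groups did not overlap, but labelled knockdown replicate 3 and WT replicate 3 lay next to each other. The log2 fold change of NMNAT1 was -0.28 ± 0.10 (SE), and -0.30 with the length offsets. NMNAT2 had 2.13, 2.43 and 3.26 TPM in the libraries labelled knockdown and 2.72, 2.72 and 2.44 TPM in WT, and its log2 fold change of -0.04 (95% interval -0.37 to 0.30) turned to 0.08 without labelled knockdown replicate 1 and to 0.02 without replicate 2. NMNAT3 had 4.90, 5.82 and 4.74 TPM in the libraries labelled knockdown and 5.17, 5.10 and 6.11 TPM in WT, with a log2 fold change of -0.15 (95% interval -0.47 to 0.16). Counts were low for NMNAT2 and NMNAT3, between 52 and 104 per library, and their intervals were wide. The smallest difference detectable at this depth was not tested.

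NADSYN1, the synthetase that completes NAD from the nicotinic acid route and from tryptophan, had 39.8, 41.8 and 39.4 TPM in the libraries labelled knockdown, against 43.8, 41.4 and 41.6 TPM in WT. The groups overlapped in TPM but not in CPM, and the log2 fold change was -0.12 (95% interval -0.27 to 0.03). NADK, the cytosolic kinase that turns NAD into NADP, had 24.1, 23.5 and 23.6 TPM in the libraries labelled knockdown, against 23.4, 23.7 and 23.4 TPM in WT. Relative to its mean this was the narrowest range in TPM among the 10 genes, with a log2 fold change of -0.04 (95% interval -0.19 to 0.12).

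In all, 3 of the 10 genes (NNMT lower, SIRT1 and NAMPT higher) were under the edgeR adjusted threshold of 0.05, where 23.3% of all tested genes were. In CPM the groups did not overlap for 5 of the 10, against 37.3% of all tested genes. As the genes were chosen with this contrast known, nothing is read from these counts. The median log2 fold change of the 10 genes was -0.12, and that of all tested genes -0.0038. The side of the threshold changed with the libraries or the length offsets for 3 genes. NAMPT was above it without labelled knockdown replicate 2 or 3 and without WT replicate 2 or 3, where its log2 fold change was 0.17, 0.16, 0.19 and 0.18 in turn. NMNAT1 was above it with all libraries and under it with the length offsets, which made the count 4 of the 10 genes, against 25.7% of all tested genes in that fit. NAPRT was above it with all libraries and under it without labelled knockdown replicate 1, where its log2 fold change was -0.28.

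**Figure D3:**
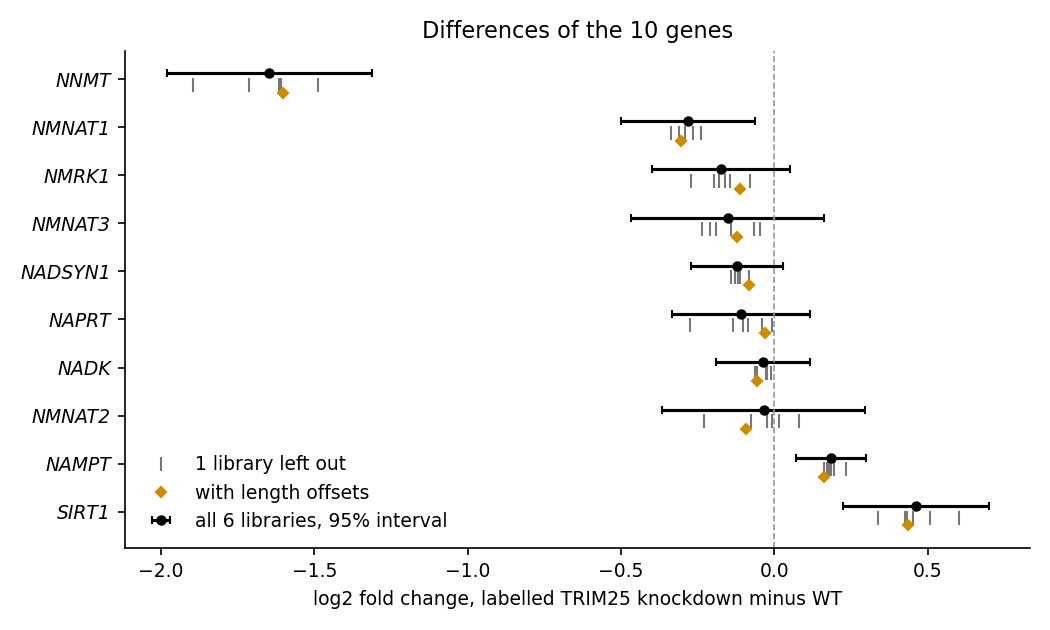
Log2 fold change of each of the 10 genes, libraries labelled TRIM25 knockdown minus WT, with all 6 libraries (black point, bar for the 95% interval of the fit), with each library left out in turn (grey ticks) and with length offsets (orange diamonds). NNMT at -1.65 lies far from the other 9 genes, which lie between -0.28 and 0.46.

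The other genes of NAD metabolism were then read from the same fit, in 7 lists that together held 76 genes, none of them among the 10. Of these 60 passed the filter on low counts. In the libraries labelled knockdown 9 rose, 1 fell and 50 did not pass the test (edgeR quasi-likelihood, adjusted p under 0.05 over all genes), so 16.7% of the tested list genes were called, against 23.3% of all genes, of which 12.2% were called higher and 11.0% lower. Their median log2 fold change was 0.02. The 16 genes left out by the filter, among them NMRK2, HAAO, ACMSD, GNMT and BHMT, had at most 19 counts in any library.

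Of the 12 genes of NAD synthesis from tryptophan 9 were tested and only IDO1 passed. IDO1, an interferon-inducible enzyme that opens this route, fell to 0.400 ± 0.041 CPM in the libraries labelled knockdown, against 1.21 ± 0.069 CPM in WT (SD, n = 3 each). This was -1.56 ± 0.34 on the log2 scale (SE), at an edgeR adjusted p of 0.00353. The counts were 5, 4 and 7 in the libraries labelled knockdown against 18, 17 and 20 in WT, so the groups did not overlap but the estimate rests on few reads. The IDO1 exons share 120 bp with an antisense gene model in GENCODE v29, and the strand setting of the counting is not given in the sources used here. QPRT, which joins this route to NAD synthesis, did not pass, at -0.17 ± 0.12 (SE) on the log2 scale. HAAO and ACMSD, the enzymes around the branch point of the route, had at most 1 count in any library.

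Of 14 other salvage, kinase, transport and repair genes 10 were tested and 1 rose, NADK2, the mitochondrial NAD kinase gene (17.6 ± 0.960 CPM in the libraries labelled knockdown and 14.4 ± 0.388 CPM in WT, SD, n = 3 each; log2 fold change 0.29). NT5E, the surface nucleotidase CD73, had a log2 fold change of -0.06 ± 0.06, and NNT, the mitochondrial transhydrogenase, one of -0.04 ± 0.07 (SE each). SLC25A51, the mitochondrial NAD carrier gene, did not pass either, at -0.21 ± 0.10 (SE).

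Among the enzymes that consume NAD, 4 of 14 tested ADP-ribosyl transferase genes (28.6%) rose and 0 fell with edgeR. Over all tested genes 23.3% were called, 12.2% higher and 11.0% lower. The share in this short list was near that of all genes in either direction and above that of genes called higher. With 14 genes nothing is read from it. None of the 14 fell at an unadjusted p under 0.05, or with limma-voom or DESeq2, by which 4 and 2 of them rose. PARP11 rose by 0.47, PARP4 by 0.27, PARP12 by 0.26 and PARP8 by 0.20 on the log2 scale. With the length offsets PARP8 had a log2 fold change of 0.08 and did not pass. PARP1, the DNA damage sensor and the transferase gene with the highest TPM in the list, stood at 335.2 ± 1.97 CPM in the libraries labelled knockdown and 336.5 ± 9.03 CPM in WT (SD, n = 3 each), a log2 fold change of -0.01 ± 0.05 (SE). Of 5 tested genes that remove ADP-ribose 2 rose, MACROD1 by 0.31 and the glycohydrolase gene PARG by 0.26. That is 40.0%, against 23.3% of all tested genes, but with 5 genes nothing is read from this share. None of the 6 sirtuin genes besides SIRT1 passed, with log2 fold changes from -0.47 to 0.04. At an unadjusted p under 0.05, 1 of these 6 was lower, SIRT7 (-0.18 ± 0.07, SE), and DESeq2 and limma-voom called 0. Of the 2 tested NAD glycohydrolase genes 0 passed, also at an unadjusted p under 0.05 and with DESeq2 and limma-voom: SARM1 had a log2 fold change of 0.04 and CD38 one of 0.02.

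**Figure D4:**
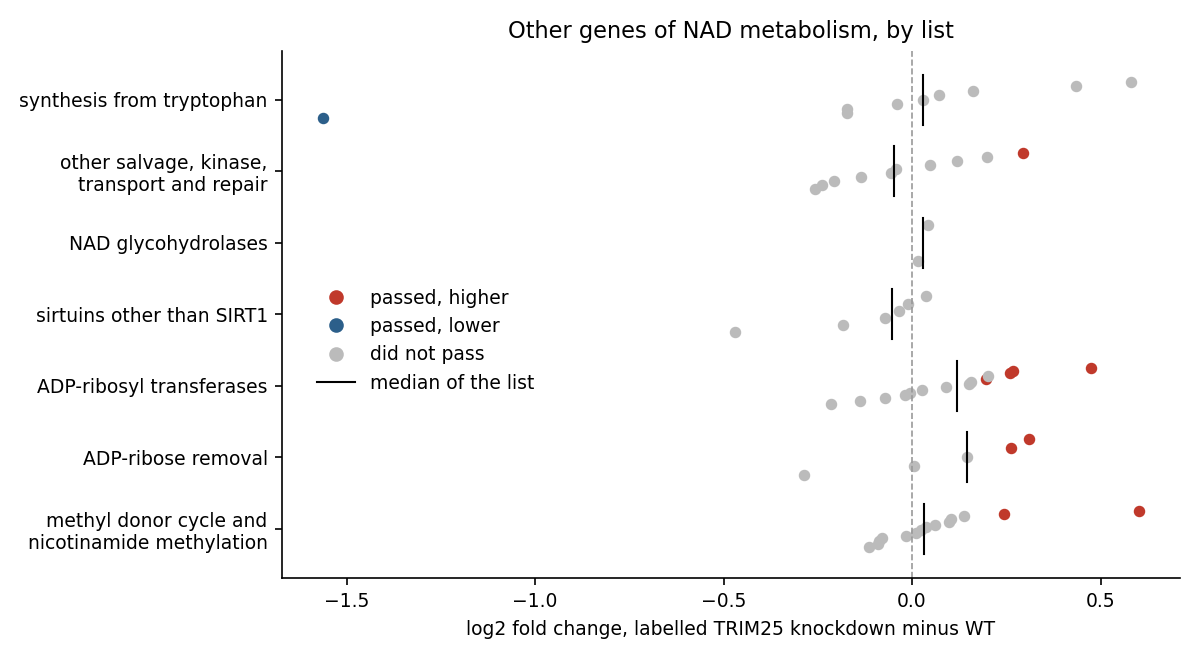
Log2 fold change, libraries labelled TRIM25 knockdown minus WT, of the 60 tested genes in 7 lists of NAD metabolism (1 point per gene, red for genes that passed the test and were higher, blue for those lower, grey for those that did not pass, black line at the list's median). IDO1 at -1.56 is the only gene of the lists that passed on the lower side, and the 9 that passed on the higher side lie between 0.20 and 0.60.

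The methyl donor of NNMT comes from the methionine cycle, and 14 of 20 genes of that cycle and of nicotinamide methylation products were tested. CBS, which draws homocysteine out of the cycle, rose by 0.60 on the log2 scale and stood at 3.68 ± 0.257 CPM in the libraries labelled knockdown and 2.42 ± 0.371 CPM in WT (SD, n = 3 each). MTR, the methionine synthase gene, rose by 0.24, and had a log2 fold change of 0.10 and did not pass with the length offsets. MAT2A, the main S-adenosylmethionine synthetase gene, had a log2 fold change of 0.04 ± 0.05, and AHCY, which clears the product of methylation, one of -0.09 ± 0.06 (SE each). AOX1, the oxidase that acts on 1-methylnicotinamide, stood at 1.43 ± 0.231 CPM in the libraries labelled knockdown and 1.42 ± 0.246 CPM in WT (SD, n = 3 each). The closest relatives of NNMT, INMT and PNMT, had at most 13 counts in any library and did not pass the filter.

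Of the 10 called list genes, IDO1 and PARP11 kept their calls in all 13 alternative fits, and the other 8 lost theirs in at least 1. Without WT replicate 1, NADK2, PARP8, MACROD1 and PARG did not pass (edgeR adjusted p 0.0647 to 0.118). Without WT replicate 2 this was so for NADK2, PARP4, PARP12, PARP8, MACROD1, CBS and MTR (0.0610 to 0.149), and without WT replicate 3 for those genes and PARG (0.0517 to 0.209). Leaving out labelled knockdown replicate 1 ended the call of MACROD1 (0.0803). Leaving out labelled knockdown replicate 2 ended those of PARP4, PARP12, PARP8, MACROD1, PARG, CBS and MTR (0.0596 to 0.231), and leaving out replicate 3 those of NADK2, PARP8, PARG, CBS and MTR (0.0761 to 0.136). Without labelled knockdown replicate 1 the count of called list genes was 16 (12 higher, 4 lower), against 10 with all 6 libraries (9 higher, 1 lower). With the length offsets 7 were higher and 2 lower, so IDO1 was not the only list gene called lower in every fit.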

How the data were processed

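RNA-seq libraries of LN229 cells (3 labelled TRIM25 knockdown, 3 labelled WT, by the genotype label) were prepared, per the labels' protocols, with Illumina's stranded kit for total RNA. FastQC, MultiQC, Trim Galore, HISAT2 and hg19 are named, without versions, in the submitters' processing notes. How reads were counted, with which strand setting and which annotation, is not given in the sources used here. The authors deposited raw counts per gene, FPKM and TPM for each library, per the file headers. The deposited FPKM equals count over gene length and total count, and gave the lengths (whole within 0.001 bp for 21754 genes with a count). The deposited TPM, which sums to 1000000, was used for levels only.

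Counts were tested in R 4.3.3 with edgeR 4.0.16 (filterByExpr, 14315 genes left; TMM; glmQLFit and glmQLFTest with group as the only term). P-values were Benjamini-Hochberg adjusted over all tested genes and called under 0.05. Fold changes are labelled knockdown over WT, and the SE is the log2 fold change over the square root of F. Alternatives were DESeq2 1.42.0, its size factors, limma-voom (limma 3.58.1), no filter, each library left out, a replicate block, and per-library offsets from a lowess trend (span 0.3) of log2 CPM (prior count 2) on log length. Replicates were not copies: chi-square between libraries of a group was 1.95 to 8.54 per degree of freedom. Fits were tested on simulated data.

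The members and lists were chosen with earlier results of these data known. Named are the 10 genes, TRIM25, up to 4 called genes per list by size of change, and the 5 nearest profiles to NNMT. Other list genes and markers were named after their values were seen. Promoter windows are from RefSeq (GRCh38.p14) and exon overlaps from GENCODE v29, both on another build than hg19.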

Additional observations from a re-analysis of the deposited data

How the results depend on the processing

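The NNMT log2 fold change stayed within 1 SD of the library spread in all 13 alternatives (-1.90 to -1.49), and so did 129 of the 130 values over the 10 genes. The exception was NMNAT2 without labelled knockdown replicate 3 (-0.23). NMNAT2 was also the gene whose sign changed, in 2 alternatives. With 3 libraries per group, leaving 1 out moves a group mean by less than 1 SD almost by construction. For those fits this measure is therefore no evidence of stability. NAPRT stayed within 1 SD while its log2 fold change went from -0.11 to -0.28 without labelled knockdown replicate 1 and its side of the threshold changed. The count of called list genes, 10 with all libraries, was 4 with DESeq2 and 2 with a replicate block. It ran from 2 (without WT replicate 3) to 16 (without labelled knockdown replicate 1) with 1 library left out. The count over all genes, 3330, was 1891 with the replicate block and from 1826 (without WT replicate 2) to 4941 (without labelled knockdown replicate 1) with 1 library left out. The cause was not tested. The replicate block also put NAMPT above the threshold (log2 fold change 0.18), and NNMT and SIRT1 stayed under it in all 13 alternatives. No label ties a replicate number to a day or batch, and deviations of same-numbered libraries correlated at -0.19, 0.01 and -0.22. Labelled knockdown replicate 1 correlated best with WT replicate 3 (0.22) and replicate 3 with WT replicate 1 (0.19). The deviations also followed gene length, with rho -0.38 and -0.36 in the former pair and 0.38 and 0.41 in the latter. These correlations therefore cannot show whether libraries shared a day or batch. Depth limits NMNAT2, NMNAT3, IDO1 and the 5 genes nearest to NNMT, which rest on few counts per library. NNMT itself had only 30, 35 and 67 counts in the libraries labelled knockdown.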
